A study of Homo sapiens with 6 samples.

Results

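The endoplasmic reticulum (ER) chaperones and protein quality control genes are a set of 36 genes chosen by symbol for their roles, and all 36 were found among the 33392 rows of the expression table. They comprise 12 chaperones, cochaperones and lectins, 7 enzymes of disulfide bond formation, 10 genes of ER-associated degradation (ERAD), 4 subunits of the protein translocation channel and its partner complex, and 3 genes of the IRE1 and ATF6 branches of the stress response (the sensors ERN1 and ATF6, and XBP1, the mRNA that IRE1 splices). The data are bulk RNA sequencing of 6 libraries from HK-2 cells, an immortalised human kidney tubule line labelled as epithelial. Every library came from cells under TGF-β1 at 48 h, 3 of them with a scramble siRNA and 3 with an siRNA against DYRK2, a dual-specificity protein kinase (siDYRK2). TGF-β1 is a cytokine that drives scarring in the kidney, and a scramble siRNA has no intended target. No library without TGF-β1 was analysed here, so the comparison concerns DYRK2 silencing under the cytokine only. The labels do not say whether the 3 libraries of a group came from separate cultures, and p-values therefore measure the spread between these libraries, which may be technical. In bulk RNA, a lower level from fewer cells making a transcript and one from less of it per cell cannot be told apart.

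The ER is where secreted and membrane proteins enter the secretory pathway, fold, receive their sugars and form disulfide bonds. Chains enter through the SEC61 channel, are held by the Hsp70 chaperone BiP (HSPA5) and by the lectins calnexin and calreticulin, and are oxidised by protein disulfide isomerases. Chains that do not fold are passed back to the cytosol for destruction, a route called ERAD. When unfolded chains build up, the membrane sensors IRE1 (ERN1), ATF6 and PERK (EIF2AK3) start the unfolded protein response, in which IRE1 splices XBP1 mRNA and ATF6 is cut to release a transcription factor. In the kidney tubule this response is studied because matrix-producing and injured cells carry a heavy secretory load.

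Expression is given as FPKM, fragments scaled to transcript length and to the library's mapped total, so levels can be compared between genes per length. Library sums lay between 252318 and 255378 FPKM, with 26.3% to 27.8% from mitochondrially encoded genes. Depth in reads is unknown. DYRK2 itself stood at 5.84, 6.06 and 5.96 FPKM with scramble and at 1.45, 1.54 and 1.49 FPKM with siDYRK2, and its groups did not overlap (log2 fold change −1.69 by limma, SE 0.0513, adjusted p = 2.0e-06). For DYRK2 alone, an exact permutation of the 6 labels, two-sided, gave p = 0.1, the smallest that 3 against 3 libraries allow. Of 16 proximal tubule markers only FBP1 reached a mean of 0.5 FPKM (6.95 ± 0.220 with scramble and 3.40 ± 0.480 with siDYRK2, SD, n = 3), 11 were below it and 4 had no row. The renal factor PAX8 was at 0.183 ± 0.00577 FPKM with scramble and 0.0867 ± 0.00577 FPKM with siDYRK2, while NKX2-1, a factor of lung and thyroid, was at 26.5 ± 0.895 and 23.4 ± 0.472 FPKM (SD, n = 3). Of the 6 lung epithelial markers listed, NKX2-1 and NAPSA fell (NAPSA at 1.98 and 1.24 FPKM), SFTPB was not called (3.65 and 4.03 FPKM), SFTPC (0.0200 and 0.0433 FPKM) and SLC34A2 (0.263 and 0.603 FPKM) stayed below the filter and SFTPA1 had no row. All 6 epithelial markers were tested, while 0 of the 5 fibroblast and 0 of the 4 endothelial markers with a row reached 0.5 FPKM. Of the epithelial markers KRT7 rose, KRT19, KRT18 and CDH1 fell and the other 2 were not called, and the part of these differences in the results on ER genes was not tested.

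Most chaperone, lectin and disulfide enzyme genes rose in the siDYRK2 libraries, while ERN1, ATF6 and XBP1 fell. EIF2AK3, which encodes the sensor PERK, is not in the set and did not pass the test, at 0.81, 0.75 and 0.75 FPKM with scramble and at 0.88, 1.07 and 0.89 FPKM with siDYRK2. Of the 36 genes, 35 had a mean of at least 0.5 FPKM and were tested on log2(FPKM + 0.5), and 18 rose, 3 fell and 14 did not pass the limma test at an adjusted p of 0.05. In the background of 15121 tested genes, 38.3% were called, 20.4% as higher and 17.9% as lower. That share was larger at the level of most members. With a filter at a mean of 2 FPKM, 2846 of 10718 genes were called higher and 2306 lower. Of the tested members only ERO1B lies below that filter, and 18 members were called higher and 3 lower with it. The rises lay in 9 of 12 chaperones and lectins, 6 of 7 disulfide enzymes, 2 of 4 translocation genes and 1 of 9 tested ERAD genes, and the falls were all 3 genes of the IRE1 and ATF6 branches. Median log2 fold changes, siDYRK2 minus scramble, were 0.32 for chaperones and lectins, 0.39 for disulfide enzymes, 0.06 for ERAD, 0.10 for translocation and −0.23 for the IRE1 and ATF6 branches, against 0.0086 over all tested genes. The ERAD median was 0.022 without siDYRK2 replicate 1. The differences between classes were not tested.

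**Figure D1:**
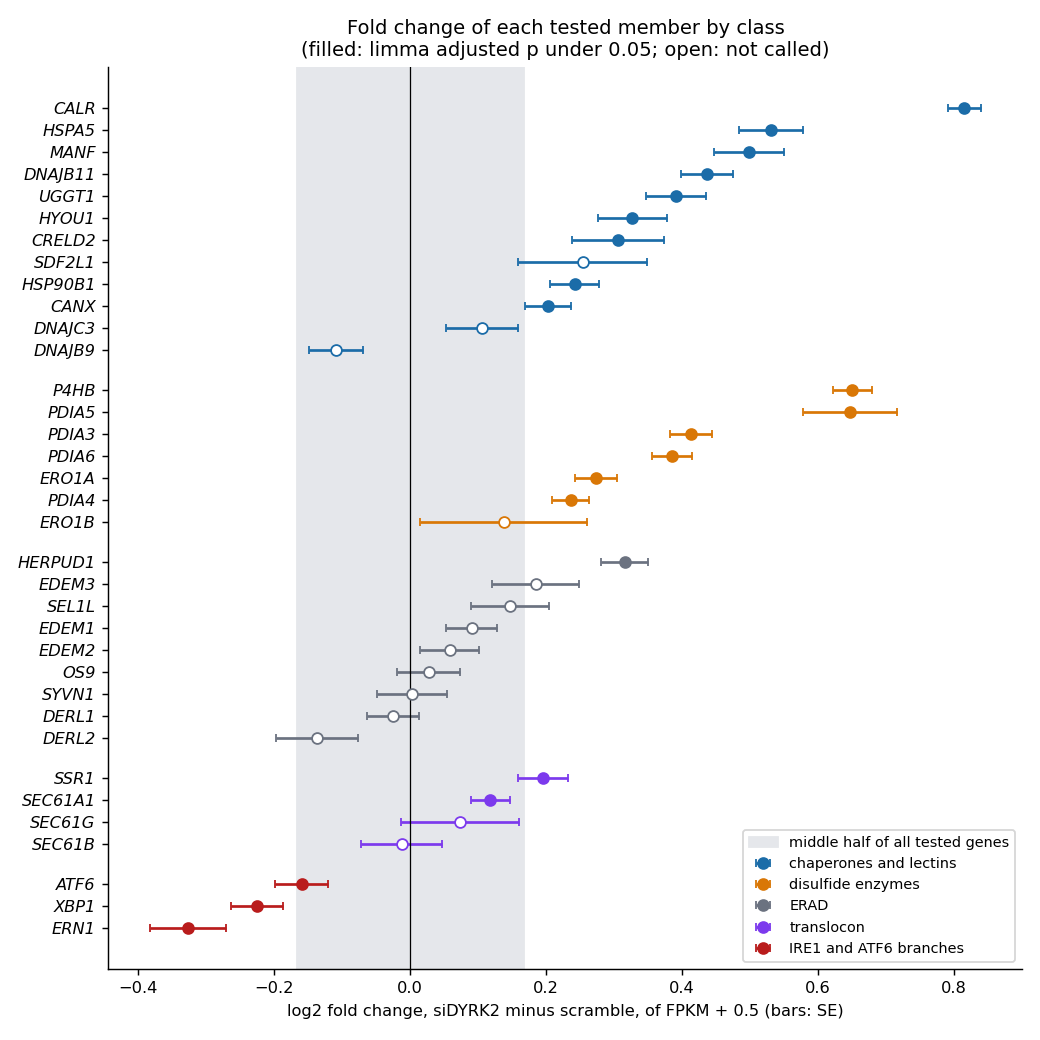
Log2 fold change (siDYRK2 minus scramble, log2 of FPKM + 0.5) of the 35 tested genes by class, with SE bars and filled points for genes past the threshold; the grey band spans the interquartile range of all tested genes, from −0.17 to 0.17. All filled chaperone and disulfide enzyme points lie to the right of the band, the ERAD points apart from HERPUD1 and EDEM3 lie within it, and ATF6, XBP1 and ERN1 lie to the left of 0.

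All 3 siDYRK2 libraries were above all 3 scramble libraries for 22 of the 35 tested genes and below them for 4, whereas in the background 27.4% of tested genes were above and 24.3% below in that sense. Summed over the 36 genes, the level was 995 ± 8.95 FPKM with scramble and 1295 ± 20.8 FPKM with siDYRK2 (SD, n = 3), a ratio of 1.30 for which no test was made. The chaperones and lectins summed to 461, 471 and 482 FPKM with scramble and to 684, 689 and 660 FPKM with siDYRK2. Disulfide enzymes summed to 275, 276 and 267 FPKM and then to 365, 363 and 360 FPKM. For ERAD the sums were 122, 127 and 127 FPKM against 136, 133 and 130 FPKM. Both folding classes thus differed by far more than their spread. The ERAD sums, at 125 ± 2.38 and 133 ± 3.22 FPKM (SD, n = 3), lay closer together but did not overlap between the groups. CALR and HSPA5, the most abundant of their class, made up most of the difference in the chaperone sum.

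**Figure D2:**
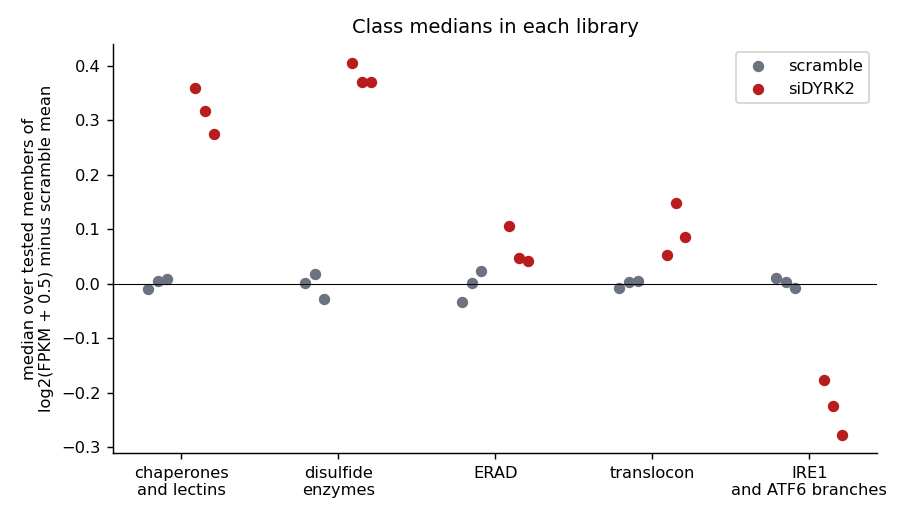
Median over the tested genes of each class of log2(FPKM + 0.5) minus the scramble mean, 1 point per library, 3 libraries per group. The siDYRK2 points lie between 0.27 and 0.41 for chaperones and lectins and for disulfide enzymes, between 0.042 and 0.11 for ERAD, and between −0.28 and −0.18 for the IRE1 and ATF6 branches.

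Promoter sequence is shown first because 11 of these genes hold 1 of 2 short elements in front of the gene. The ER stress response element (ERSE) is the site to which ATF6 is known to bind together with the factor NF-Y, and its letters are CCAAT and CCACG separated by 9 bases. A second form, ERSE-II, has ATTGG and CCACG separated by 1 base. RefSeq windows on GRCh38.p14 from 250 bases before to 50 bases after the transcription start were available for 33 of the genes, and PDIA3, DERL1 and DERL3 had none. An exact ERSE on either strand was found for 8 of the 33 (24.2%), against 25 of all 27305 genes with a window (0.0916%), a number that includes these 8. ERSE-II was found for 3 of the 33 (9.09%), against 19 of 27305 (0.0696%). No gene of the set held both elements. The genes of the set were chosen by symbol for their roles in the ER, known targets of this response among them. The higher shares are therefore a description of the chosen set, and no test of them was made. A match describes letters in the window and is no measured binding site.

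The sites are printed on the strand that carries the motif, 5′ to 3′, with the fixed letters in capitals and the spacer in lower case, so that the genes can be compared. The first 9 lines hold ERSE and the last 3 ERSE-II, and the sites of HYOU1 share their letters.
HSPA5: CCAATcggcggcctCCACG
HSP90B1, distal: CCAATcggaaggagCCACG
HSP90B1, proximal: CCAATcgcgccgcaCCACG
CALR: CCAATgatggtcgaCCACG
CANX: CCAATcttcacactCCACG
CRELD2: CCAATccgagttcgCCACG
PDIA6: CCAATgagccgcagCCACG
ERO1B: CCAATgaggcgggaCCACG
XBP1: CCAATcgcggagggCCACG
HYOU1, both sites: ATTGGaCCACG
HERPUD1: ATTGGgCCACG
SDF2L1: ATTGGtCCACG

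Of the 8 genes with ERSE, 6 rose (HSPA5, HSP90B1, CALR, CANX, CRELD2 and PDIA6), ERO1B did not pass the test and XBP1 fell. Of the 3 genes with ERSE-II, HYOU1 and HERPUD1 rose and SDF2L1 did not pass the test. Rises were not limited to genes with a match. With neither element in the window, DNAJB11, MANF, UGGT1, P4HB, PDIA4, PDIA5, ERO1A, SEC61A1 and SSR1 rose as well. In the whole set 18 of 35 tested genes rose. Among the other 17 genes with ERSE, 8 were tested, of which FICD (log2 fold change 0.39), which modifies BiP, was called higher, and SERP1 (−0.61), ALG12 (−0.32) and SYNPO (−0.18) lower. ALG12, a mannosyltransferase, shares exon sequence with CRELD2 on the opposite strand, and whether the counting used strand is not given. Whether the windows of ALG12 and CRELD2 hold the same site was not checked. Among the other 16 genes with ERSE-II, 10 were tested, of which NUCB1 (0.31), SETD3 (0.36) and SHCBP1 (0.72) were called higher and GYS1 (−0.18) lower. A further word searched on both strands, the unfolded protein response element TGACGTGG to which XBP1 binds, was found only for HYOU1, against 253 of 27305 genes (0.927%), and overlaps the distal ERSE-II there. Of the other genes with that word, 122 were tested, 31 being called higher and 28 lower. The amino acid response element TGATGCAAT was found for 0 of the 33 genes, against 80 of 27305 (0.293%), of which 14 were tested, 7 being called higher and 2 lower. Beside these counts, 20.4% of all 15121 tested genes were called higher and 17.9% lower. None of the counts by element was tested against those shares.

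Whole windows are shown for 4 genes that span the responses: the most abundant chaperones, the only ERAD gene that rose, and XBP1, which fell. They run along the gene's strand, and capitals mark the fixed letters of the element.
HSPA5 (chr9:125241294-125241593, minus strand): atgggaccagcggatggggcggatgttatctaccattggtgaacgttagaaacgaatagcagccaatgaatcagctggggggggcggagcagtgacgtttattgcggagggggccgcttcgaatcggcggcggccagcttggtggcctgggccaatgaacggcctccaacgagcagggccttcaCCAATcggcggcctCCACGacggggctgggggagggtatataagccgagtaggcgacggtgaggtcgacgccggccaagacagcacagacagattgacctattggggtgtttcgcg
CALR (chr19:12938359-12938658, plus strand): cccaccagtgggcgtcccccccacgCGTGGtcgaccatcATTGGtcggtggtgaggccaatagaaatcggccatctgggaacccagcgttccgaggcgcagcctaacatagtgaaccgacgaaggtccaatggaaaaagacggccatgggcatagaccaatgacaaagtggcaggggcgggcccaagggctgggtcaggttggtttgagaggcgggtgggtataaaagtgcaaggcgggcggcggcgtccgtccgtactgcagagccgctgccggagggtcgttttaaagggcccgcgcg
HERPUD1 (chr16:56931892-56932191, plus strand): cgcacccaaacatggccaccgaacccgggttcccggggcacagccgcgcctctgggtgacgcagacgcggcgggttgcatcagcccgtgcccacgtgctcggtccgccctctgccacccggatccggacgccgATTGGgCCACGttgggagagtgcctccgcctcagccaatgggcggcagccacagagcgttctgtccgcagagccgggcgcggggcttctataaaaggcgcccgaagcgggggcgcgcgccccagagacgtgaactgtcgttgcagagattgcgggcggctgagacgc
XBP1 (chr22:28800520-28800819, minus strand): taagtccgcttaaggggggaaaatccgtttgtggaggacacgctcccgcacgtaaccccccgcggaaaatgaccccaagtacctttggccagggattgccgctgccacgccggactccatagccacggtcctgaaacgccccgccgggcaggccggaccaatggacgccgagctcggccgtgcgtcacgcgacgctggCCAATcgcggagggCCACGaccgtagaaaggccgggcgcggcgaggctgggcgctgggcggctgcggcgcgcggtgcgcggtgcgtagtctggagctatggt
The element begins 66 bases before the start in HSPA5, 225 in CALR, 117 in HERPUD1 and 52 in XBP1. In CALR it lies on the opposite strand, so that the reverse complement is in capitals.

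**Figure D3:**
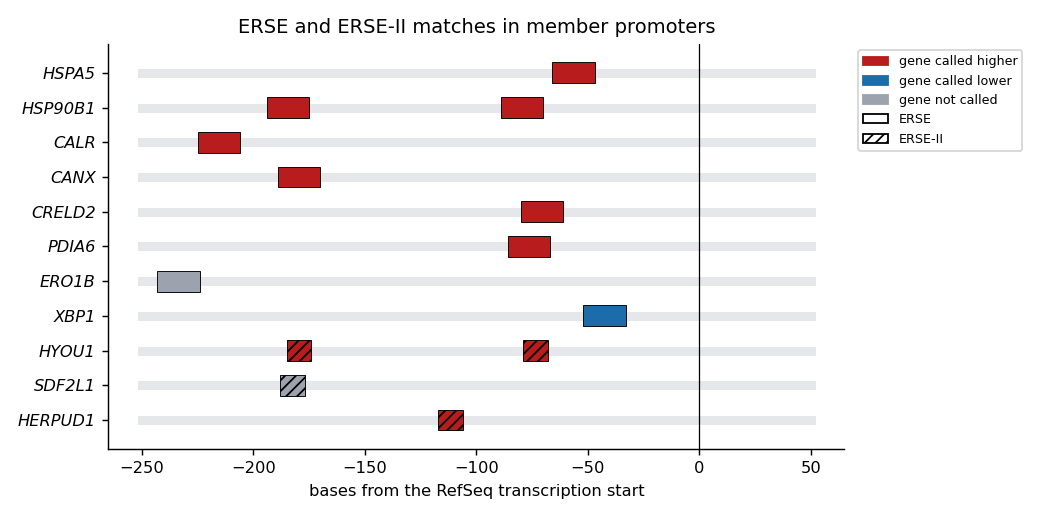
Positions of exact ERSE (plain) and ERSE-II (hatched) matches relative to the RefSeq transcription start, for the 11 genes with a match; the grey line is the window searched, and colours give the limma call. For CANX, which has several annotated starts, the most upstream position is drawn. Matches lie between 243 and 33 bases before the start in these windows, in genes called higher, lower and not called.

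Calreticulin had the largest rise of the set. CALR (ENSG00000179218; GRCh38 chromosome 19, 12938578 to 12944489, plus strand), a calcium-binding lectin of the ER lumen that holds glycoproteins, stood at 139.53, 139.96 and 139.59 FPKM with scramble and at 244.95, 248.29 and 245.04 FPKM with siDYRK2. The scramble values spanned less than 1 FPKM and the groups lay far apart. The 1.76-fold rise (log2 fold change 0.81, SE 0.0244, limma adjusted p = 1.95e-06) ranked 140 from the top among the 15121 tested genes. Its membrane-bound relative CANX (calnexin) moved less, from 45.84, 47.24 and 46.07 FPKM to 54.14, 54.81 and 51.46 FPKM, a 1.15-fold rise (adjusted p = 0.0032). UGGT1, which puts a glucose back on unfolded glycoproteins so that these lectins bind them again, went from 8.68, 8.09 and 8.40 FPKM to 11.03, 10.86 and 11.59 FPKM, a 1.33-fold rise (adjusted p = 5.6e-04). These 3 genes of the lectin cycle rose, with no overlap between the groups. Over all tested genes, 20.4% were called higher, and 27.4% had all siDYRK2 libraries above all scramble libraries.

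BiP and its partners followed, in unequal measure. HSPA5 (ENSG00000044574; GRCh38 chromosome 9, 125234853 to 125241330, minus strand), the Hsp70 chaperone of the ER and the usual marker of ER stress, stood at 121.62, 127.75 and 132.41 FPKM with scramble and at 188.67, 189.92 and 173.81 FPKM with siDYRK2. The lowest siDYRK2 library was well above the highest scramble library, and the rise was 1.45-fold (log2 fold change 0.53, SE 0.0468, limma adjusted p = 2.0e-04). HYOU1, a large Hsp70 relative that acts as exchange factor for BiP, was at 64.26, 66.35 and 72.68 FPKM and then at 87.32, 86.07 and 81.69 FPKM, a 1.25-fold rise (adjusted p = 0.0024). In both genes scramble replicate 3 was the highest of its group and siDYRK2 replicate 3 the lowest. MANF, a small secreted protein that binds BiP, rose 1.43-fold (adjusted p = 3.8e-04) from 8.50, 8.33 and 9.33 FPKM to 12.62, 12.12 and 12.79 FPKM. CRELD2, an ER protein with isomerase activity, rose 1.27-fold (adjusted p = 0.010) from 3.30, 2.85 and 3.33 FPKM to 4.16, 3.96 and 3.93 FPKM, and shares exon sequence with ALG12 on the opposite strand. HSP90B1 (GRP94), the Hsp90 of the ER, rose 1.18-fold (adjusted p = 0.0019) from 37.57, 37.39 and 35.61 FPKM to 44.17, 44.57 and 42.28 FPKM, a smaller step than that of HSPA5 from a lower level.

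The J-domain cochaperones of BiP, which stimulate its ATPase, did not move together. DNAJB11 (ERdj3), which binds substrates in the lumen, was at 8.60, 8.55 and 8.33 FPKM and then at 11.49, 12.07 and 11.46 FPKM, a 1.37-fold rise (limma adjusted p = 2.0e-04). Its exons overlap those of TBCCD1 on the opposite strand, at 4.36 to 6.27 FPKM. DNAJC3 (p58IPK) was at 6.42, 7.24 and 6.95 FPKM against 7.39, 7.63 and 7.25 FPKM and did not pass the test (log2 fold change 0.11, adjusted p = 0.15), although its groups did not overlap. DNAJB9 (ERdj4), a known target of spliced XBP1, was at 10.56, 10.06 and 10.32 FPKM against 9.27, 9.80 and 9.52 FPKM. Among the 12 chaperones and lectins of the set it alone had a negative log2 fold change (−0.11, adjusted p = 0.067), also without overlap between the groups and also not past the test. Its exons overlap those of PNPLA8 and THAP5 on the opposite strand, which were at 9.35 to 10.86 FPKM and 7.22 to 9.22 FPKM, and whether the counting used strand is not given. SDF2L1, a partner of ERdj3, was at 6.32, 7.61 and 8.54 FPKM against 9.0, 8.86 and 9.03 FPKM (log2 fold change 0.25, adjusted p = 0.072). The scramble libraries of SDF2L1 were spread widely, and without scramble replicate 3 it was called higher (adjusted p = 0.016).

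Of the 7 disulfide enzymes of the set, 6 rose, beside 20.4% of all tested genes called higher. P4HB (PDI; ENSG00000185624; GRCh38 chromosome 17, 81843159 to 81860694, minus strand), the founding protein disulfide isomerase and also a subunit of collagen prolyl hydroxylase, stood at 52.34, 53.43 and 51.37 FPKM with scramble and at 83.35, 81.70 and 82.43 FPKM with siDYRK2. This 1.57-fold rise (log2 fold change 0.65, SE 0.0280, limma adjusted p = 9.1e-06) came with the second smallest adjusted p of the set, after CALR. PDIA5, a scarcer isomerase, was at 2.45, 2.39 and 2.54 FPKM against 3.75, 4.43 and 4.25 FPKM, a 1.68-fold rise (log2 fold change 0.65, adjusted p = 4.5e-04). The order of P4HB and PDIA5 depended on the pseudocount, with log2 fold changes of 0.654 and 0.726 at 0.1 and of 0.645 and 0.570 at 1. PDIA5 shares exons on its own strand with SEC22A, at 2.87 to 3.34 FPKM.

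PDIA6, which reduces disulfides in active IRE1, was the most abundant enzyme of the class at 97.55, 97.93 and 94.13 FPKM against 128.89, 124.89 and 124.87 FPKM, a 1.31-fold rise (limma adjusted p = 1.1e-04). PDIA3 (ERp57), which works with calnexin and calreticulin on glycoproteins, was at 36.91, 36.22 and 35.91 FPKM against 48.31, 49.85 and 47.54 FPKM, a 1.34-fold rise (adjusted p = 9.0e-05). PDIA4 (ERp72) was at 62.95, 63.20 and 61.16 FPKM against 73.44, 73.54 and 73.86 FPKM, a 1.18-fold rise (adjusted p = 5.9e-04). In these 3 isomerases all siDYRK2 libraries were above all scramble libraries, as they were for 27.4% of all tested genes. The pseudogene PDIA3P1, with which PDIA3 may share reads, was at 10.78 to 11.7 FPKM with scramble and 12.25 to 14.64 FPKM with siDYRK2.

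The oxidases that recharge these isomerases differed in level. ERO1A was at 21.37, 21.80 and 21.36 FPKM against 25.95, 26.66 and 25.71 FPKM, a 1.21-fold rise (limma adjusted p = 5.5e-04). ERO1B was at 1.06, 1.15 and 0.97 FPKM against 1.26, 1.46 and 0.96 FPKM, with overlapping groups (log2 fold change 0.14, SE 0.123, adjusted p = 0.42). At this level the SE is about as large as the difference, so a rise like that of ERO1A was not detectable for ERO1B.

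**Figure D4:**
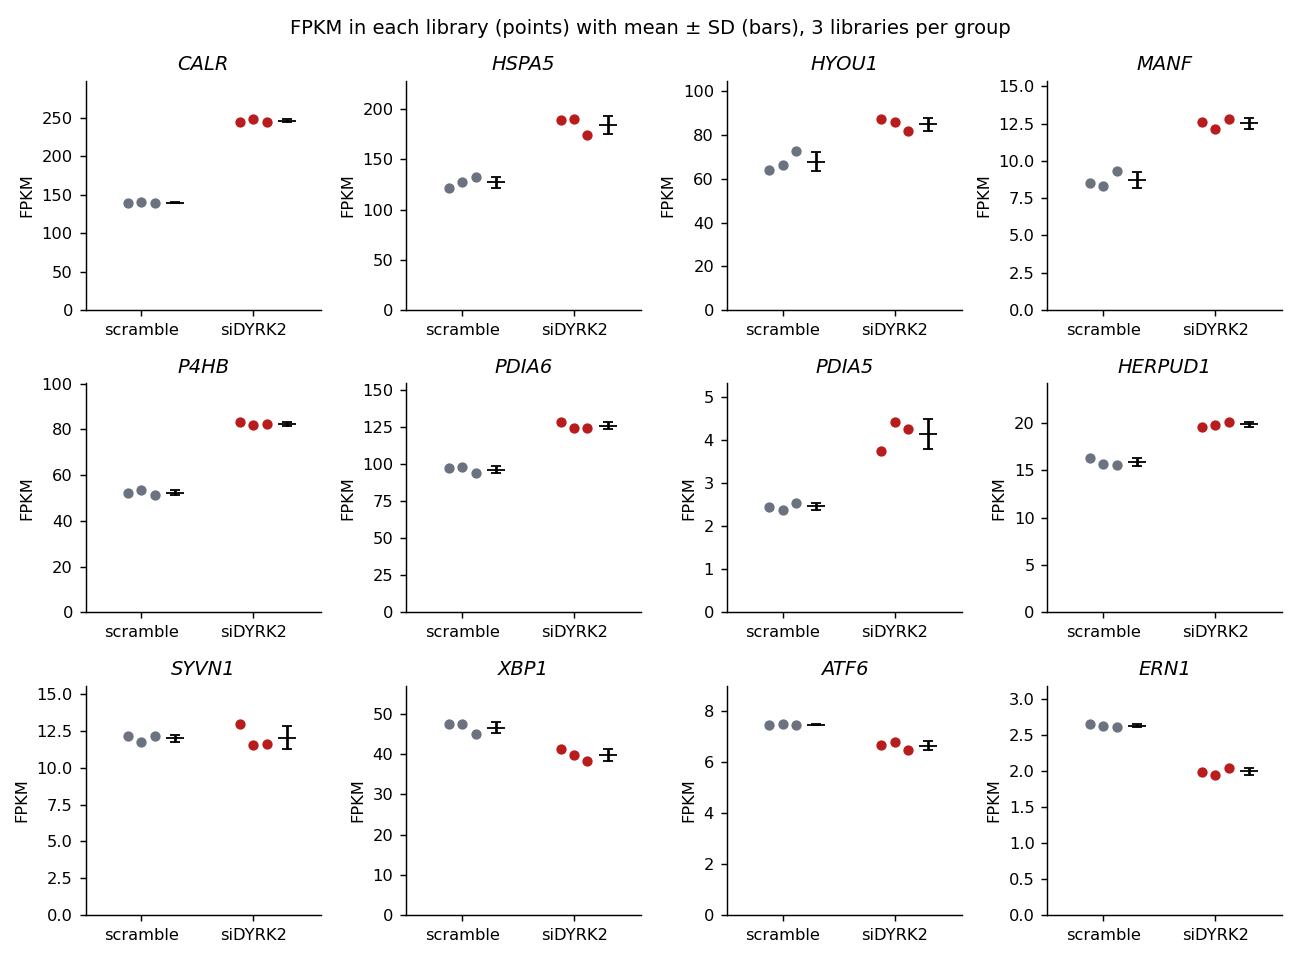
FPKM of 12 genes in each of the 6 libraries (points) with the mean ± SD of each group (bars), each panel on its own linear axis from 0. CALR, HSPA5, P4HB and PDIA6 show no overlap between groups, SYVN1 overlaps between the groups, and XBP1, ATF6 and ERN1 are lower in all 3 siDYRK2 libraries.

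In ERAD only HERPUD1 was called. HERPUD1, a membrane protein that organises the degradation complex and is itself strongly stress-inducible, was at 16.35, 15.72 and 15.52 FPKM against 19.60, 19.83 and 20.15 FPKM, a 1.25-fold rise without overlap (log2 fold change 0.32, SE 0.0343, limma adjusted p = 4.8e-04). The core ubiquitin ligase SYVN1 (HRD1) was at 12.15, 11.73 and 12.18 FPKM against 12.98, 11.58 and 11.61 FPKM (log2 fold change 0.0025, adjusted p = 0.97), the smallest difference of the set. SYVN1 shares exons with the abundant genes FAU on its own strand and MRPL49 on the other, so its level is uncertain. Its partner SEL1L was at 15.71, 16.85 and 17.43 FPKM against 18.98, 19.35 and 17.22 FPKM, overlapping in 1 library (log2 fold change 0.15, adjusted p = 0.081). Without siDYRK2 replicate 3, the low one, SEL1L was called higher (adjusted p = 0.029).

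The lectins and mannosidases that mark glycoproteins for ERAD showed small positive differences that did not pass the test. EDEM1 had a log2 fold change of 0.09 (limma adjusted p = 0.098) and EDEM3 of 0.18 (adjusted p = 0.057), both with all 3 siDYRK2 libraries above the scramble ones. EDEM2, the most abundant ERAD gene, was at 25.62, 26.93 and 25.43 FPKM against 28.50, 26.02 and 26.76 FPKM (log2 fold change 0.06, adjusted p = 0.33). OS9, which reads trimmed sugars, overlapped as well (0.03, adjusted p = 0.68). The derlins, membrane proteins of the exit channel, had log2 fold changes of −0.02 for DERL1 (adjusted p = 0.65) and −0.14 for DERL2 (adjusted p = 0.11), with overlapping groups. DERL2 exons overlap those of MIS12 on the opposite strand, at 12.51 to 13.97 FPKM. DERL3 was listed at 0.06 to 0.17 FPKM in all 6 libraries and was not tested.

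For the 4 translocation genes of the set the differences were small. This does not cover all genes of ER entry. From the further list below, singled out after their values were seen, SEC61A2 rose 1.41-fold and SRPRA 1.32-fold. SEC62, TRAM1 and SRP68 were among those not called. SEC61A1, the pore of the translocation channel, was at 25.45, 25.63 and 25.78 FPKM against 28.27, 27.74 and 27.55 FPKM, a 1.09-fold rise (limma adjusted p = 0.015). The call of SEC61A1 was lost without scramble replicate 2 (adjusted p = 0.056) and without siDYRK2 replicate 1 (adjusted p = 0.0575), and its exons overlap those of RUVBL1 on the opposite strand, at 9.41 to 11.51 FPKM. SSR1, a subunit of the translocon-associated TRAP complex, rose 1.15-fold (adjusted p = 0.0055) from 12.38, 12.44 and 12.44 FPKM to 13.82, 14.28 and 14.79 FPKM. The small channel subunits SEC61B, at 23.58, 23.31 and 20.79 FPKM against 21.76, 21.62 and 23.66 FPKM (adjusted p = 0.89), and SEC61G, at 7.21 to 8.97 FPKM against 7.86 to 9.24 FPKM (adjusted p = 0.54), overlapped between the groups. The pore subunit and the small subunits of the same channel were thus not called alike, and that difference was not tested.

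ERN1, XBP1 and ATF6 were lower in every siDYRK2 library. ERN1 (ENSG00000178607; GRCh38 chromosome 17, 64039142 to 64130819, minus strand), which encodes the kinase and ribonuclease IRE1, stood at 2.65, 2.62 and 2.61 FPKM with scramble and at 1.99, 1.95 and 2.04 FPKM with siDYRK2. The fall was 1.32-fold (log2 fold change −0.33, SE 0.0556, limma adjusted p = 0.0035). XBP1 (ENSG00000100219; GRCh38 chromosome 22, 28794555 to 28800597, minus strand), whose mRNA IRE1 splices into the active form, was at 47.47, 47.40 and 44.98 FPKM against 41.18, 39.85 and 38.38 FPKM, a 1.17-fold fall (log2 fold change −0.23, SE 0.0382, adjusted p = 0.0034). The values are per gene and do not separate spliced from unspliced XBP1. ATF6 was at 7.48, 7.50 and 7.46 FPKM against 6.66, 6.81 and 6.47 FPKM, a 1.13-fold fall (log2 fold change −0.16, SE 0.0393, adjusted p = 0.017). The call of ATF6 was lost without scramble replicate 2 (adjusted p = 0.059). RNA levels say nothing of the cleavage of ATF6 or the phosphorylation of IRE1, through which both sensors act.

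**Figure D5:**
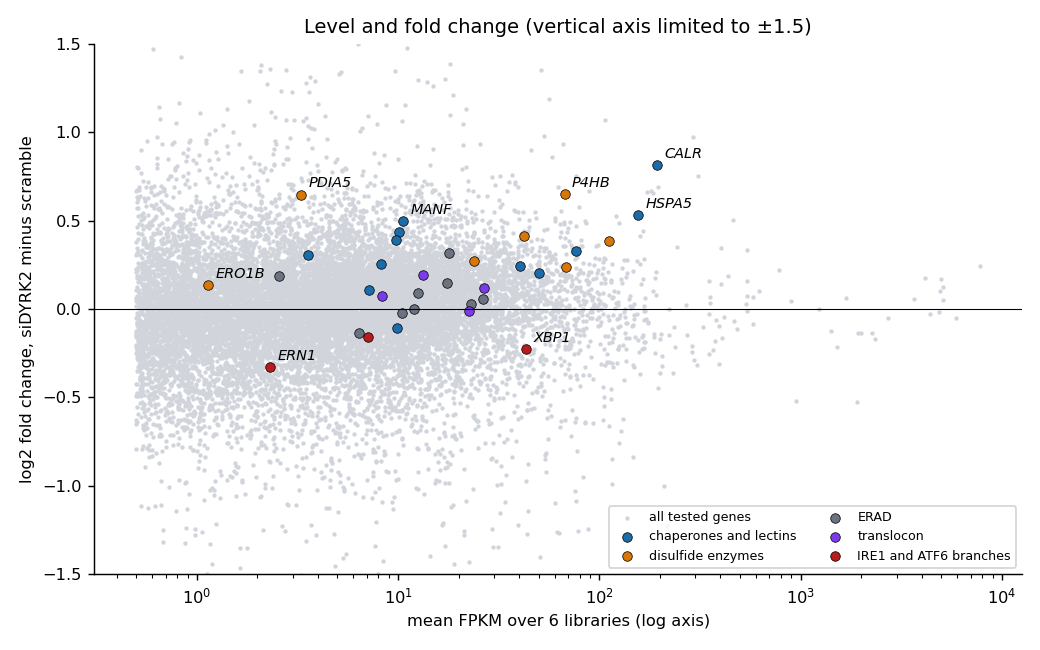
Mean FPKM over the 6 libraries (log axis) against the log2 fold change, for all tested genes (grey) and the 35 tested genes of the set (coloured by class); the vertical axis stops at ±1.5. CALR, HSPA5, PDIA6 and P4HB lie at high levels with positive differences, XBP1 at 43.2 FPKM lies below 0, and PDIA5 and ERN1 lie on opposite sides at 3.30 and 2.31 FPKM.

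The other branch of the response, PERK and the integrated stress response with related factors, had members going both ways. Of 28 listed genes, 26 were tested: 10 were called higher, 9 lower and 7 neither way. The median difference on the log2 scale was −0.01. Over all tested genes, 20.4% were called higher and 17.9% lower, with a median of 0.0086. ASNS, the asparagine synthetase and a target of ATF4, had the smallest adjusted p of the list and was 2.10-fold higher, at 69.1 ± 1.82 FPKM with scramble and 145 ± 6.67 FPKM with siDYRK2 (SD, n = 3, adjusted p = 5.6e-06 by limma). PSAT1, of serine synthesis, rose 1.26-fold from 480 to 605 FPKM. The transcription factors CEBPB and ATF5 fell, CEBPB 1.55-fold from 82.4 to 53.2 FPKM and ATF5 2.02-fold from 6.24 to 3.09 FPKM. Singled out after their values were seen, DDIT3 (CHOP) fell 1.16-fold (adjusted p = 0.040), ATF4 overlapped between the groups at 152 ± 3.89 and 146 ± 9.92 FPKM (SD, n = 3; adjusted p = 0.39), and EIF2AK3 (PERK) was at 0.770 and 0.947 FPKM (adjusted p = 0.16). ATF6B, the relative of ATF6, also singled out in this way, fell 1.22-fold (adjusted p = 0.0017). Without scramble replicate 2, 6 of the list were called higher.

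Among further genes of ER folding, glycosylation, translocation and ERAD, more were called higher than lower. Of 77 listed genes, 75 were tested: 34 were called higher, 7 lower and 34 neither way. The median difference on the log2 scale was 0.11. The shares over all tested genes were 20.4% higher and 17.9% lower, with a median of 0.0086. TXNDC5, another disulfide isomerase, was 1.42-fold higher, at 70.1 ± 0.365 FPKM with scramble and 99.3 ± 1.74 FPKM with siDYRK2 (SD, n = 3, adjusted p = 2.2e-05 by limma). Of further genes of disulfide formation in this list, singled out after their values were seen, TMX1, TXNDC11 and ERP44 were called higher. TMX3, TMX4, TXNDC12, QSOX1 and DNAJC10 were not called. The oligosaccharyltransferase subunits RPN2 and DDOST, which belong to the complex that attaches sugars to entering chains, rose 1.36-fold and 1.31-fold. ERLIN2, a membrane scaffold in the degradation of ER proteins, fell 1.54-fold from 8.24 to 5.37 FPKM. Without scramble replicate 2, 4 of the list were called lower.

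Chaperones outside the ER were also higher in part. Of 30 listed cytosolic and mitochondrial chaperone genes, all tested, 15 were called higher, 1 lower and 14 neither way. The median difference on the log2 scale was 0.15. Beside this, 20.4% of all tested genes were called higher and 17.9% lower, with a median of 0.0086. The lower one was the small heat shock protein HSPB1 (50.2 and 46.6 FPKM), and the count of lower genes was 0 without scramble replicate 1, scramble replicate 2 or siDYRK2 replicate 2 and 2 without scramble replicate 3. TCP1, CCT2 and CCT7, subunits of the cytosolic chaperonin, rose 1.43-fold, 1.21-fold and 1.19-fold, and the mitochondrial Hsp90 TRAP1 rose 1.35-fold. Whether the ER folding genes differ from this list was not tested. In the 3′ ends of the 36 genes, the words ATCTATA or CATCTAT, singled out by an earlier scan of these data, were found for 6, against 14.9% of 11626 tested genes. The 36 include the untested DERL3, and 6 of 36 is close to the share over tested genes. Of the 3 genes that fell, ATF6 holds such a word, and of the genes that rose PDIA4 and SSR1 do. Because the words were taken from these same data, the matches support no statement about these genes.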

How the data were processed

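Total RNA (Trizol, DNase I) was sequenced on Illumina instruments by a commercial provider, per the labels' protocols. HISAT2, StringTie and GRCh38 are named, without versions or order, in the submitters' processing notes. Not given in the sources used here are the annotation, whether strand was used and how reads with several mapping positions were treated. The authors deposited FPKM rounded to 2 decimals, 1 column per library, per the file headers. Rows were matched by gene name, and 0 columns of other samples were present.

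A mean of 0.5 FPKM or more was required (15121 of 33392 genes). On the scale log2(FPKM + 0.5), limma 3.58.1 (R 4.3.3) gave moderated statistics with a mean-variance trend (two-sided, Benjamini-Hochberg adjustment at 0.05 over all tested genes). A fold is the quotient of the group means in FPKM, while SE and p belong to the log2 difference. The test was run on simulated data first. At the best of many trial depths, at most 25.2% of low values of single-transcript genes came within 0.1 of whole reads. By chance 20% would at a single depth, and the chance value for the best of many was not computed. Whole reads were not recovered in this way, so no count test was made and depth is unknown. Members and lists were chosen with earlier results of these data known. The naming rule takes every member, with all 6 values for each member called and, in each class, for the highest level, largest difference and largest adjusted p, and up to 4 called genes with the smallest adjusted p of each further list. Promoter windows are RefSeq's on GRCh38.p14, and coordinates and overlapping exons are from GENCODE v29 on GRCh38. Further steps used Python 3.11.15, pandas 2.3.3 and numpy 2.4.6. Alternatives were other pseudocounts, filters and scalings, no trend, a replicate block and leaving out each library.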

Additional observations from a re-analysis of the deposited data

How the results depend on the processing

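Over 15 alternatives, 19 of the 21 called members held their call in each, and no called member changed direction. The exceptions were ATF6 and SEC61A1. The members called numbered 17 to 19 higher and 2 or 3 lower. Over all genes 4466 to 5843 were called, and no scaling moved the median log2 fold change of all genes by 0.1. With quantile normalization, 2 ERAD genes were called higher and 2 cytosolic or mitochondrial chaperones lower, and SYVN1 stood at −0.010. Without the trend the ERAD count was 2 (EDEM3 joined HERPUD1) and 0 of the outside chaperones were lower. Without a filter, 6 genes of the PERK list were higher, with more genes tested.

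No shared deviation of same-numbered libraries was seen. Their deviations from the group means correlated at −0.077, 0.024 and −0.088, and 1 of 3 scramble libraries correlated best with its own number. With 3 libraries per group these values cannot show whether same-numbered libraries were handled together. With the replicate block 1 translocation gene was higher, 0 outside chaperones were lower, and adjusted p was 0.0511 for ATF6 and 0.0539 for SEC61A1.

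Leaving out 1 library in turn, median log2 fold changes ranged from 0.165 to 0.230 for all members, 0.291 to 0.363 for chaperones and lectins, 0.0218 to 0.0834 for ERAD and 0.0668 to 0.134 for translocation genes. Calls ranged from 1 to 2 higher for ERAD and for translocation, 6 to 9 higher in the PERK list, 4 to 6 lower among the further ER genes and 0 to 2 lower among outside chaperones. Uncalled members changed sign: SYVN1 ranged from −0.0496 to 0.0295, OS9 from −0.0061 to 0.0627, SEC61B from −0.0689 to 0.0199 and SEC61G from −0.0025 to 0.146. The cause of these changes was not tested. Depth is unknown, which limits what can be said of genes near 1 FPKM such as ERO1B.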
